A study of Rattus norvegicus with 35 samples.

Results

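The fibrillar collagens and mesenchymal markers described here are 10 genes of rat converted hypoblast stem cells. They were chosen by name and matched by RefSeq identifier to 1 record each, out of 17198 genes in the count table. They comprise the fibrillar collagen chains Col1a1, Col1a2, Col3a1 and Col5a1, the matrix genes Postn, Dcn, Lum and Fbn1, and the cell markers S100a4 and Thy1. The series held 34 libraries labelled as single cells and 1 labelled as a bulk population control, all from converted hypoblast stem cells collected on day 12 of differentiation. Cells and bulk shared their origin, rat embryonic stem cells cultured with PDGF, EGF, LIF and 2% fetal bovine serum. RNA was prepared with the Fluidigm C1 kit for single cells, and Nextera XT was used for the sequencing libraries. No strain, culture number or batch is given in the labels, so the 34 cells were treated as 1 sample, set against 1 bulk sample, and no difference was tested.

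Fibrillar collagens are secreted as triple helices of chains and assemble outside the cell into the fibres of connective tissue. Type I collagen is built from the chains of Col1a1 and Col1a2, type III from the chain of Col3a1, and the type V chain of Col5a1 takes part in starting the fibril. Fibroblasts and other mesenchymal cells are their main producers, whereas cells of the hypoblast lineage are known for a sheet-like basement membrane of laminins and type IV collagen. The network-forming type IV chains are not fibrillar.

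Cells held 6288 to 503044 reads in genes (median 266046) and 349 to 5514 genes with a read (median 4306). The bulk library held 47121 reads and 4741 genes. Levels are given as CPM, the reads of a gene per 1000000 reads of its library, so that 1 read was worth 1.99 to 159 CPM in a cell and 21.2 CPM in bulk. The cells labelled C94 and C88 stood apart as the shallowest and held no member read. Intervals and floors cover counting error of independent reads only, and a floor is what 3 reads would give. Even values were in excess among counts above 0, at 59.8% to 72.6% in cells and 79.9% in bulk, so reads were not independent molecules and intervals are too narrow. Of 7 hypoblast markers that the label implies, Gata6 had a read in 28 cells, Dab2 in 27, Gata4 in 26 and Sox17 in 24. Pdgfra had a read in 23 cells, Foxa2 in 19 and Sox7 in 12, and Foxa2 and Sox7 had 0 bulk reads.

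Promoter windows of RefSeq (GRCr8 build, 250 bases before to 50 after the start site, all shown windows on the plus strand) matched 6 of the 10 members. Those of Col1a2, S100a4 and Postn are shown, since Col1a2 and S100a4 shared their cells and Postn was largely found elsewhere. Capitals mark matches to 3 motifs searched on both strands. The first motif was TATAAA, the second was CCAAT, which reads ATTGG on the other strand, and the third was GGGCGG. The windows are chr4:33518307-33518606, chr2:178388279-178388578 and chr2:140677811-140678110, in that order.
Col1a2: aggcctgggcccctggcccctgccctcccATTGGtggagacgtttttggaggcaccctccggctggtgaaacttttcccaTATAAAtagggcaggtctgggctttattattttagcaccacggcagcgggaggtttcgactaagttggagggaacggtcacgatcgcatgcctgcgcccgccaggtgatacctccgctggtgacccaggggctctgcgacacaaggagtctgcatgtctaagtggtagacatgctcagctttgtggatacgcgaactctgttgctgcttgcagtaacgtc
S100a4: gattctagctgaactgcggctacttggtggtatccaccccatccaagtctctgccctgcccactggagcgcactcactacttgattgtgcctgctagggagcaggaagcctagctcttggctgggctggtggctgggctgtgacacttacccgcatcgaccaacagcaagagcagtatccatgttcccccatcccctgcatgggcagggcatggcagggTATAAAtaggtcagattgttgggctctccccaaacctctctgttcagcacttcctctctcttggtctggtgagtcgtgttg
Postn: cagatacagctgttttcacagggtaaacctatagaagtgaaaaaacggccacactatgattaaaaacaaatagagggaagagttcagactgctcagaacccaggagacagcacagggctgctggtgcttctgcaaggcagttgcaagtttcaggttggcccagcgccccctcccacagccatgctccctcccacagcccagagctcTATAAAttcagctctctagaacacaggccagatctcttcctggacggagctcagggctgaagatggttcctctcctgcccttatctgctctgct
TATAAA lay in 3 of the 6 member promoters, those shown, against 14.2% of 33469 promoters of the same length. Its first base stood at position -170 in Col1a2, -31 in S100a4 and -44 in Postn, counted back from the start site. CCAAT lay in 2 member promoters, Col1a2 and Lum, against 37.5% of all, and GGGCGG in 1, Col5a1, against 33.1%. A match describes letters and not a bound site.

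Most cells held no read of the 4 fibrillar collagen chains among the members, which are called the fibrillar collagens from here on. Reads of the 4 chains were found in 5 of 34 cells, C14, C30, C17, C46 and C09, and came to 255 reads in all. Of the 10 members, 8 had a read in at least 1 cell, where 62.2% of all genes did, and 3 had a read in at least 4 cells, where 46.1% of all genes did. No member reached 5 CPM in 17 or more cells, which 17% of all genes did. In bulk, 5 of the 10 members had a read, against 27.6% of all genes.

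**Figure D1:**
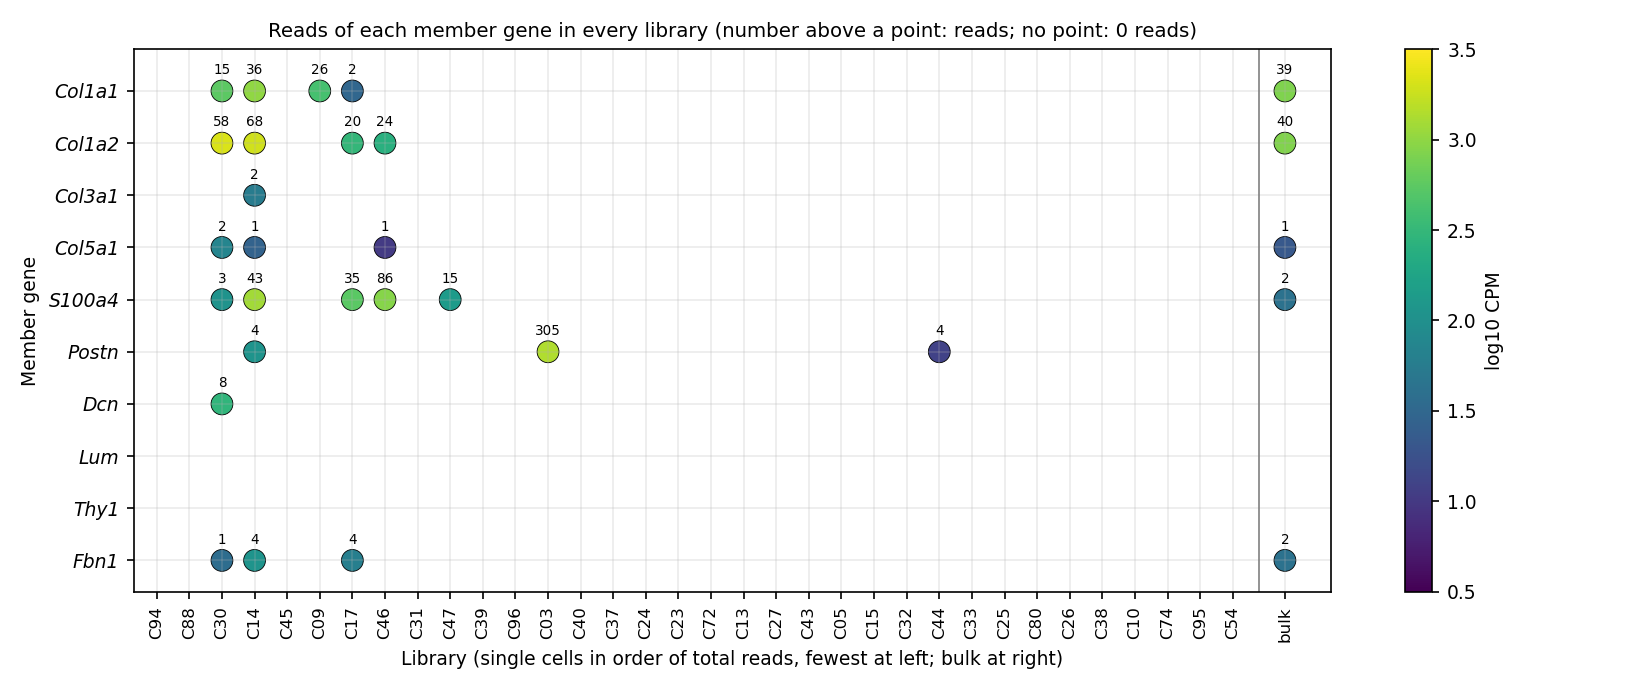
Reads of the 10 members (rows) in each of the 34 cells, in order of total reads, and in the bulk library (columns). Colour gives log10 CPM, the number above a point gives the reads, and an empty place stands for 0 reads. Member reads lie in 8 cells, and the 5 cells with fibrillar collagens are all among those with few reads.

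Type I collagen made up nearly all of these reads. Col1a2 was found at 68 reads in C14 (1906 CPM), 58 in C30 (2126 CPM), 20 in C17 (308 CPM) and 24 in C46 (252 CPM), and at 0 in the other 30 cells. C14 and C30 were therefore far above C17 and C46. The share of cells with a read was 11.8% (exact Clopper-Pearson interval 3.30% to 27.5%), and the mean was 135 ± 483 CPM (SD over 34 cells).

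Col1a1 was found at 36 reads in C14 (1009 CPM), 15 in C30 (550 CPM), 26 in C09 (408 CPM) and 2 in C17 (30.8 CPM). It was absent from the reads of C46, where a floor of 3 reads is 31.5 CPM, and C09 was the cell with Col1a1 but no Col1a2. Its mean was 58.8 ± 204 CPM, again with a read in 11.8% of cells. The mean was 29.96 CPM without C14, which held 50.5% of the signal, and that of Col1a2 was 74.7 CPM without C30, which held 46.3%.

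Col3a1 and Col5a1 were close to the limit of counting. Col3a1, the chain of type III collagen, had 2 reads, both in C14 (56.1 CPM). Col5a1 had 2 reads in C30 (73.3 CPM) and 1 each in C14 (28.03 CPM) and C46 (10.5 CPM). Both were thus found in cells that also had Col1a2.

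Among the other matrix members, Postn stood apart from the collagens. It encodes periostin, a secreted protein of collagen-rich matrix, and was found at 305 reads in C03 (1403 CPM), with 4 reads each in C14 (112 CPM) and C44 (12.3 CPM). C03 held 91.9% of the signal of Postn and no read of any other member, at a depth of 217328 reads. Without that cell the mean of Postn was 3.77 CPM, against 44.9 ± 241 CPM with it.

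Dcn and Lum encode decorin and lumican, small leucine-rich proteoglycans that bind collagen fibrils. Dcn had 8 reads, all in C30 (293 CPM), and Lum had 0 reads in every cell and in bulk. Fbn1, which encodes the microfibril protein fibrillin-1, had 4 reads each in C14 (112 CPM) and C17 (61.5 CPM) and 1 in C30 (36.7 CPM). These 3 cells all held Col1a1 and Col1a2 as well.

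The marker S100a4, a calcium-binding protein also called fibroblast-specific protein, was read in more cells than any other member. It was found at 43 reads in C14 (1205 CPM), 86 in C46 (902 CPM), 35 in C17 (538 CPM), 15 in C47 (137 CPM) and 3 in C30 (110 CPM). Its share was 14.7% of cells (interval 4.95% to 31.1%) and its mean 85.1 ± 266 CPM. C30, high for Col1a2, was the lowest of the 5 cells for S100a4, and C47 had no read of the fibrillar collagen members. Thy1, which encodes a surface glycoprotein of fibroblasts and other cells, had 0 reads in all 34 cells and in bulk. At a floor of 3, a count of 0 of 34 cells allows a share of up to 8.82% with a read, and 0 bulk reads allow up to 63.7 CPM.

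Members were found together in a small set of cells. Of 34 cells, 26 had no member read, 4 had reads of 1 member and 4 had reads of at least 3. C14 held 7 members, C30 held 6, C17 held 4 and C46 held 3. All 4 cells with Col1a2 had S100a4, which is 100% of the Col1a2 cells and 80% of the S100a4 cells. Col1a1 and Col1a2 shared 3 cells, 75% of each, and the 3 Fbn1 cells were all Col1a1 and Col1a2 cells. Postn shared only C14 with Col1a2, which is 33.3% of the Postn cells. These shares are small numbers of cells, treated as 1 sample, and carry no test.

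The cells with fibrillar collagens were shallow. They held 27284 reads (C30), 35681 (C14), 63704 (C09), 65038 (C17) and 95359 (C46), and 1882 to 4028 genes with a read. All 26 cells deeper than C46 lacked fibrillar collagen reads, although the floor was as low as 5.96 CPM in C54. The part of depth in this pattern was not tested. A filter for at least 50000 reads and 2000 genes removed C14, C30 and C09 and kept C17 and C46 among 25 cells.

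The balance between the type I chains ranged from Col1a1 reads alone to Col1a2 reads alone. Col1a1 made up 34.6% of the 104 type I reads of C14 (exact binomial interval 25.6% to 44.6%), 20.5% of the 73 reads of C30 (12.0% to 31.6%) and 9.09% of the 22 reads of C17 (1.12% to 29.2%). In bulk it made up 49.4% of 79 reads (37.9% to 60.9%). C09, with 26 Col1a1 reads, lay at 100% (86.8% to 100%) and C46, with 24 Col1a2 reads, at 0% (0% to 14.2%). The interval of C09 overlapped no other, while those of C14, C30 and C17 overlapped each other. That of C46 also overlapped those of C17 and C30, and that of bulk overlapped that of C14. Transcript lengths were not used here, so the share compares libraries and gives no ratio of the chains.

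**Figure D2:**
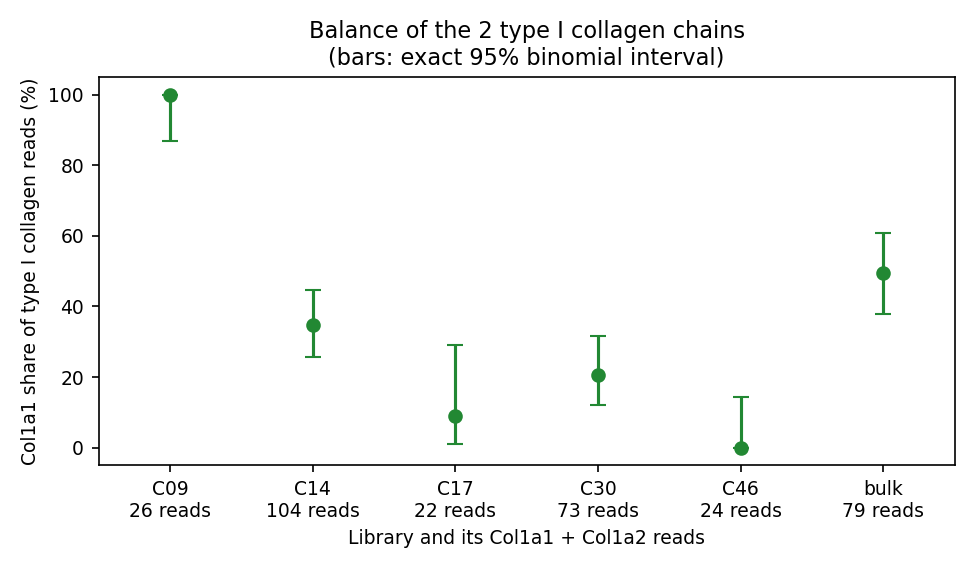
Share of Col1a1 among the reads of Col1a1 and Col1a2 (vertical axis, percent) in the 5 cells with type I reads and in bulk, with exact 95% binomial intervals. C09 lies at 100% and C46 at 0%, with bulk at 49.4%.

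The next question was how the bulk population control compared with the cells. Type I collagen was higher in bulk than in the mean of the cells. Col1a1 had 39 bulk reads (828 CPM), 14.1-fold the mean of the cells (interval 10.02 to 19.3, from the bulk reads alone), and Col1a2 had 40 bulk reads (849 CPM), 6.29-fold (4.49 to 8.56). Both bulk levels lay below the highest cell, C14 for Col1a1 and C30 for Col1a2. The ratios rested on few cells. Without C14 they were 27.6-fold for Col1a1 and 10.4-fold for Col1a2, and without C30 the ratio of Col1a2 was 11.4-fold. In bulk RNA, more cells of a type and more RNA per cell cannot be told apart.

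The other members gave few bulk reads. Fbn1 had 2 (42.4 CPM), 6.86-fold the mean of the cells with an interval from 0.831 to 24.8, and Col5a1 had 1 (21.2 CPM), 6.45-fold with an interval from 0.163 to 35.95. Without 1 cell these ratios were 14.3 (Fbn1, without C14) and 18.2 (Col5a1, without C30). S100a4 had 2 bulk reads (42.4 CPM) and was 2.00-fold higher in the mean of the cells (0.555 to 16.5). Without C14 the bulk level of S100a4 was 0.830 of the cells' mean, and with reads summed over the cells it was 1.88 times theirs, so the direction of S100a4 is not settled by these reads. Col3a1, Postn and Dcn had 0 bulk reads and cell means under the bulk floor of 63.7 CPM, so no fold is given.

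Of the 10 members, 4 were at least 2-fold higher in bulk (Col1a1, Col1a2, Col5a1 and Fbn1), as were 21.3% of the 9023 genes tested, those at 1 CPM or more on average over both levels. Of the members, 7 met that minimum, and Col3a1, Lum and Thy1 did not. S100a4 was the 1 member at least 2-fold higher in the cells, as were 7.86% of these genes. Only Col1a1 and Col1a2 had intervals that lay wholly above 2-fold.

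**Figure D3:**
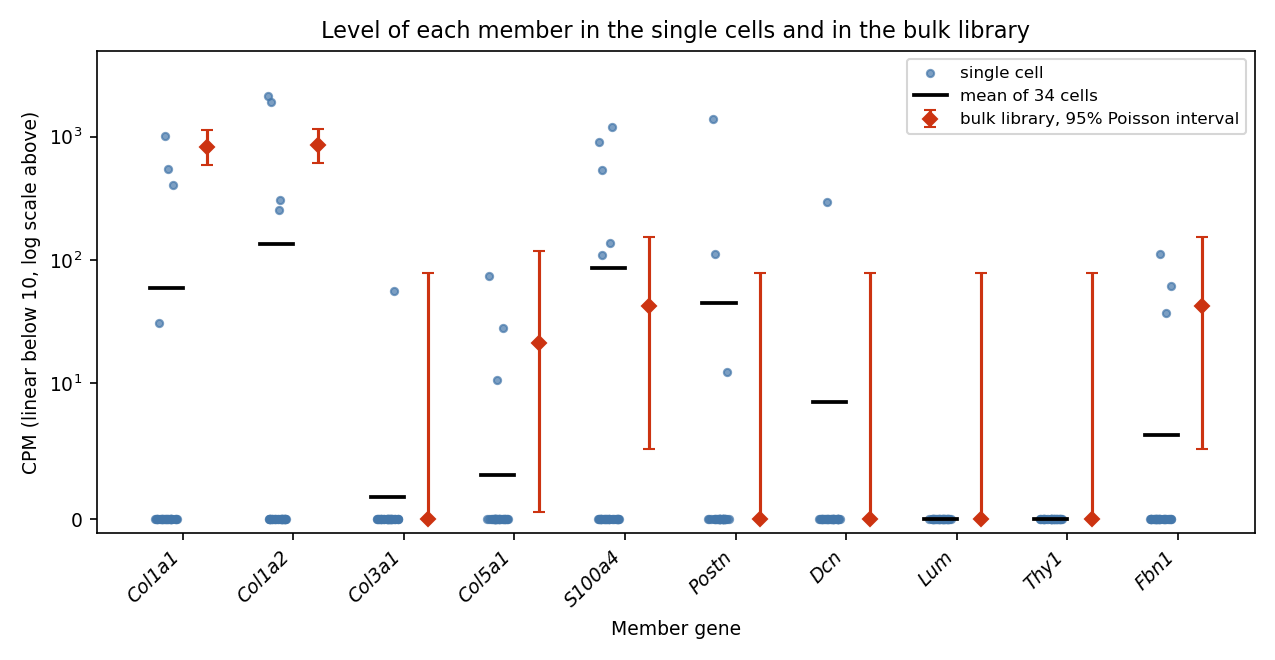
Level of each member in CPM (vertical axis, linear below 10 and logarithmic above) in the 34 cells (points), their mean (black line) and the bulk library (diamond, with the exact 95% Poisson interval of its reads). Bulk exceeds the mean of the cells for Col1a1 and Col1a2, at 828 and 849 CPM, while most cells lie at 0.

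Genes that work with fibrillar collagen were set beside the members, with counts read against the same background shares of 21.3% and 7.86%. Those shares are over tested genes. Tested genes numbered 2 for other collagens, 11 for processing, 13 for proteoglycans and microfibrils, 7 for matricellular genes and 3 for receptors. They numbered 6 for stromal markers, 4 for transcription factors, 5 for contractile genes, 7 for the TGF-beta pathway and 6 for proteases and inhibitors. A gene is said to reach 17 cells where it had at least 5 CPM in 17 or more. The other fibrillar and fibril-associated collagens were mostly unread, apart from Col5a3. Of 13 listed genes 6 were matched and 2 had a read in a cell, Col5a3, with a mean of 13.3 CPM and its highest level in C17 (308 CPM), and Col11a1, with 1 read in C30 and 2 in bulk. Col11a1 was the 1 gene past 2-fold, while Col2a1, the cartilage collagen, had no read.

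Some enzymes of collagen processing were read in many cells and others in few. Of 15 genes 11 were matched, all with a read in a cell, and 5 reached 5 CPM in at least 17 cells. Serpinh1, a collagen chaperone, was read in 29 cells (250 ± 217 CPM), and the prolyl hydroxylase subunits P4ha2 and P4ha1 in 21 and 18 cells. Pcolce and the lysyl oxidase relatives Loxl1, Loxl2, Loxl3 and Loxl4 were read in 1 to 4 cells, as were the fibrillar chains. None of the 11 was called at least 2-fold lower in bulk, where Serpinh1 lay at 0.678 of the cells' mean on 8 reads. Bmp1, Pcolce and Loxl3 had 0 bulk reads and cell means under the bulk floor of 63.7 CPM, so they could not be called. In bulk, 6 of the 11 were at least 2-fold higher. Loxl1, Loxl2 and Loxl4 were so on 1 or 2 bulk reads and P4ha1 on 14 (2.38-fold), beside the lysyl hydroxylases Plod1 (22 bulk reads, 5.79-fold, interval 3.63 to 8.77) and Plod2 (18 bulk reads, 4.53-fold, 2.68 to 7.16). These enzymes also modify type IV collagen.

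Proteoglycans and microfibril genes were uneven. Of 21 genes 20 were matched, 13 had a read in a cell and 3 reached 17 cells. Bgn, which encodes biglycan, had 27 bulk reads, 19.5-fold the cells' mean (12.9 to 28.4), and its highest cell was C14 (645 CPM), without which the ratio was 53.6. Ltbp1, a latent TGF-beta binding protein, was 12.0-fold higher in bulk (8 reads, 5.20 to 23.7). Mfap5, a microfibril-associated glycoprotein, went the other way, with reads in 25 cells (336 ± 411 CPM) and 0 in bulk, at least 5.28-fold above the bulk floor. Efemp2 was read in 17 cells and Fmod, which encodes fibromodulin, in 8. In all, 4 genes of this list were higher in bulk and 1 higher in the cells.

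Matricellular genes included some that were high in bulk and in the cells with fibrillar collagens. Thbs1, which encodes thrombospondin 1, had 76 bulk reads (1613 CPM), 24.9-fold the cells' mean (19.6 to 31.1), and in the cells it was read in C30 (1943 CPM), C14 (140 CPM) and C17 (123 CPM) alone. Those are the 3 cells with both type I chains. C30 held 88.1% of the signal, and without it the ratio of Thbs1 was 202. Ccn2, a connective tissue growth factor, was 6.86-fold higher in bulk (92 reads, 5.53 to 8.41) and Fn1, which encodes fibronectin, 2.85-fold (94 reads, 2.31 to 3.49). Ccn1 had reads in 30 cells, and its bulk level was 0.692 of the cells' mean. Without C94, which held 69.95% of the signal, Ccn1 was 2.24-fold higher in bulk. Of the 8 genes, 4 were higher in bulk and 1, Spp1, higher in the cells, on 2 bulk reads. Without C30, which held 81.2% of the signal, Spp1 turned to 1.79-fold higher in bulk.

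Receptors and stromal markers were uneven. Of the collagen receptors 6 of 8 were matched and 2 had a read in a cell. Itgb1, the beta-1 integrin subunit, was read in 27 cells (302 ± 423 CPM) and was 1.68-fold higher in bulk. The collagen-binding kinase Ddr1 had 4 bulk reads and none in the cells, and was the 1 receptor past 2-fold, while Ddr2 had its highest level in C14 (168 CPM). Of the 9 stromal surface markers 8 had a read in a cell and none reached 17 cells. Pdgfrb and Cd44 were past 2-fold in bulk on 2 and 4 reads, at 13.6-fold (28.01 without C14) and 2.77-fold (4.16 without C17). Pdpn, which encodes podoplanin, was read in 15 cells and Alcam in 5, both with 0 bulk reads.

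Among transcription factors of mesenchymal cells, 10 of 13 were matched, and 6 of these had a read in a cell, a share near that of all genes. None reached 17 cells or was past 2-fold with all cells. Twist2 had 97.5% of its signal in C09 (2465 CPM) and Prrx1 98.2% in C94 (2386 CPM), the cell with the fewest reads. Without C09, Twist2 was 44.5-fold higher in bulk, on 4 bulk reads. Snai1, an epithelial-mesenchymal transition factor, was read in 15 cells (53.1 ± 107 CPM).

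Of the 6 contractile and cytoskeletal genes, 3 were at least 2-fold higher in bulk and 2 reached 17 cells. Vim, which encodes vimentin, had its 5 highest levels in the 5 cells with fibrillar collagens, from 1510 CPM in C46 to 4325 CPM in C30, against a median of 218 CPM over the 34 cells. Acta2, the smooth muscle actin gene, had its 5 highest levels in the same cells, from 219.9 CPM in C30 to 12388 CPM in C14. C14 held 78.2% of the signal. The fifth place was a near tie, since C30 had 6 reads and C47, without fibrillar collagen reads, had 219.1 CPM on 24 reads. In bulk Acta2 was 2.10-fold higher, and 9.35-fold without C14. Tagln was 6.01-fold higher in bulk (3.56 to 9.49, and 9.09 without C13) and Myl9 3.77-fold (1.63 to 7.44).

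Of the 10 TGF-beta pathway genes, 2 reached 17 cells. Smad2, a signal transducer of the pathway, was read in 18 cells and Tgfbr1 in 11. Among 8 proteases and inhibitors, 3 were higher in bulk and 1 in the cells. The collagenase gene Mmp1 had 8 bulk reads and none in the cells, Mmp14 was 2.30-fold higher in bulk (0.845 to 5.01, and 3.501 without C45), and the inhibitor gene Timp2 was 6.75-fold higher in the cells on 2 bulk reads. Timp3 and Timp1 were read in 22 and 20 cells and lay within 2-fold.

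As log2(CPM + 1), the median difference of bulk from cells was 2.77 for matricellular genes, 1.24 for processing enzymes, 1.07 for contractile genes, 0.75 for receptors, 0.26 for proteases and inhibitors and -0.37 for proteoglycan and microfibril genes. It was -1.61 over all genes tested, of which 47.5% had 0 bulk reads. The median was 0.28 for the other fibrillar collagens, -1.01 for transcription factors, -2.04 for TGF-beta genes and -2.82 for stromal markers. These last medians rested wholly or in part on genes with 0 bulk reads.

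The last question was what else the cells with fibrillar collagens expressed. Hypoblast markers differed among the 5. Gata4, a transcription factor of the lineage, had 0 reads in each of the 5, and these made up 5 of the 8 cells without Gata4, where the median of 34 cells was 168 CPM. The floor in the 5 cells ran from 31.5 CPM in C46 to 110 CPM in C30. Gata6 had 125.6 CPM in C09, 112 CPM in C14, 20.97 CPM in C46 and 0 reads in C17 and C30. Of 7 hypoblast markers, C09 had reads of 4, C46 of 3, C17 of 2, C14 of 1 and C30 of none. C09 stood apart from the other 4, with Foxa2 at 204 CPM, the third highest of 34 cells, and Dab2 at 283 CPM, above the median of 214 CPM. The 7 markers summed to 0 to 644 CPM in the 5 cells, 0 to 11765 CPM in the other 29 and 1358 CPM in bulk.

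Of the basement membrane chains, Lama1, Lamc1 and Col4a1 each lay below the median of the 34 cells in all 5. Lama1, the laminin alpha-1 gene, had 738 CPM in C09, 126 CPM in C46, 30.8 CPM in C17 and 0 reads in C14 and C30, against a median of 2838 CPM over 34 cells. Lama1, Lamc1 and Col4a1 together came to 0 to 1366 CPM in the 5 cells and 0 to 21235 CPM in the other 29, so the ranges overlapped. Sparc, which encodes a collagen-binding glycoprotein, was read in all 5, from 273 CPM in C46 to 4596 CPM in C14. It lay above its median of 3145 CPM over 34 cells in C14 and below it in C09, C17, C30 and C46. All 5 matched basement membrane genes, Sparc included, came to 661 to 4596 CPM in the 5 cells. In the other 29 they came to 27.8 to 22399 CPM. In bulk, which held 80 fibrillar collagen reads, Col4a1 was 2.19-fold the cells' mean (1.87 to 2.55) and Sparc 1.93-fold (2.06 without C80), with 2 of the 5 matched genes past 2-fold. Of the hypoblast markers 2 were at least 2-fold higher in the cells, Gata6 at 4.08-fold and Pdgfra at 2.15-fold, or 1.74-fold without C80. None was past 2-fold in bulk with all 34 cells. Without C88, which held 86.8% of its signal, Sox17 was 7.04-fold higher in bulk on 18 reads.

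**Figure D4:**
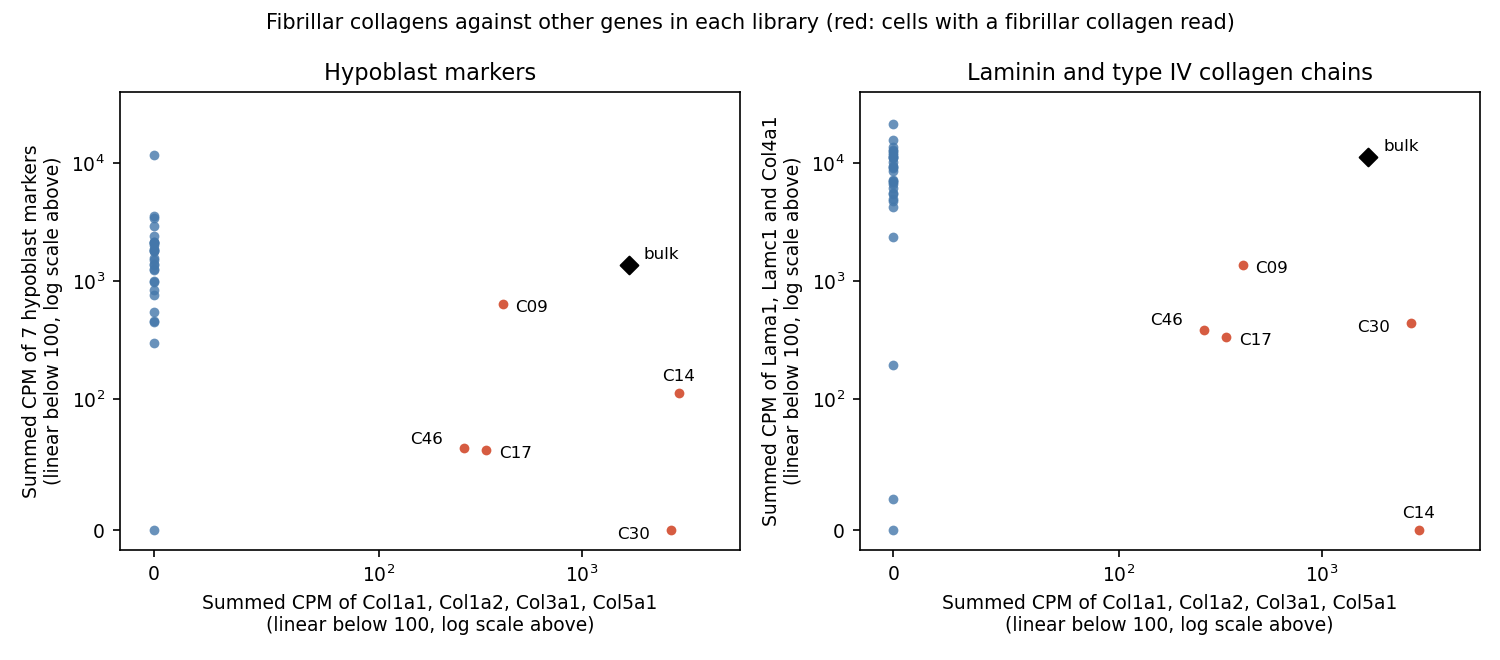
Summed CPM of the 4 fibrillar collagens (horizontal axis) against the summed CPM of 7 hypoblast markers (left) and of Lama1, Lamc1 and Col4a1 (right), for 34 cells (circles) and bulk (diamond); axes are linear below 100 and logarithmic above. The 5 cells with reads of the 4 fibrillar collagens (red) reach at most 644 CPM on the left and 1366 CPM on the right. Bulk holds both kinds of gene.

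Markers of other cell types gave no reads in the 5 cells, apart from pluripotency and fibroblast genes. All 6 leukocyte, 5 endothelial and 5 matched trophoblast markers had 0 reads in them. Most of the other cells also had 0 reads of each of these lists, so the zeros do not set the 5 cells apart. In the 5 cells a count of 0 was limited by floors of 31.5 CPM (C46) to 110 CPM (C30). Pluripotency genes came to at most 15.4 CPM, from 1 Nanog read each in C17 and C46, with Pou5f1 and Sox2 at 0. In the other cells the highest summed levels were 246 CPM for leukocyte genes, led by Cd14, 438 CPM for endothelial genes, from Tek, and 848 CPM for trophoblast genes, led by Plac1. In bulk, trophoblast genes came to 849 CPM, with Plac1 at 9.30-fold the cells' mean (26 reads, 6.08 to 13.6, and 15.5 without C40) and Prl3d1 at 12 reads against none in the cells. Endothelial Cdh5 had 4 bulk reads, and leukocyte and pluripotency genes had none. Of 10 fibroblast markers, 7 of them members, 3 had bulk reads. In the cells with fibrillar collagens Pdgfrb had 2 reads in C14 and 1 in C30, Prrx1 had 3 in C46, and Fap had none. Their part in the result was not tested.

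Genes most like the fibrillar collagens were ranked by Pearson's r of log2(CPM + 1) with the summed level of the 4 chains over 34 cells, among 7931 genes with a read in at least 4 cells. The r is a description that rests on 4 to 6 cells with reads. The cells were treated as 1 sample and differ in depth. Syndig1l came first (r = 0.96), with 15 reads in C46, 10 in C30, 9 in C17, 3 in C14 and 1 in C09. Tspo, which encodes a mitochondrial outer membrane protein, came second (r = 0.92) and was also read in all 5 cells. Tm4sf1 (r = 0.90), Pam (r = 0.90), Csf1 (r = 0.88), Cpe (r = 0.86) and Pmp22 (r = 0.85) had reads in 4 cells each, which were the 4 cells with Col1a2. Cd44, the hyaluronan receptor gene (r = 0.87), Rpl3l (r = 0.86) and Krt73 (r = 0.84) completed the 10. Of the other members, S100a4 ranked 14th at r = 0.80. The bulk library held at most 6 reads of any of these 10 genes.

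**Figure D5:**
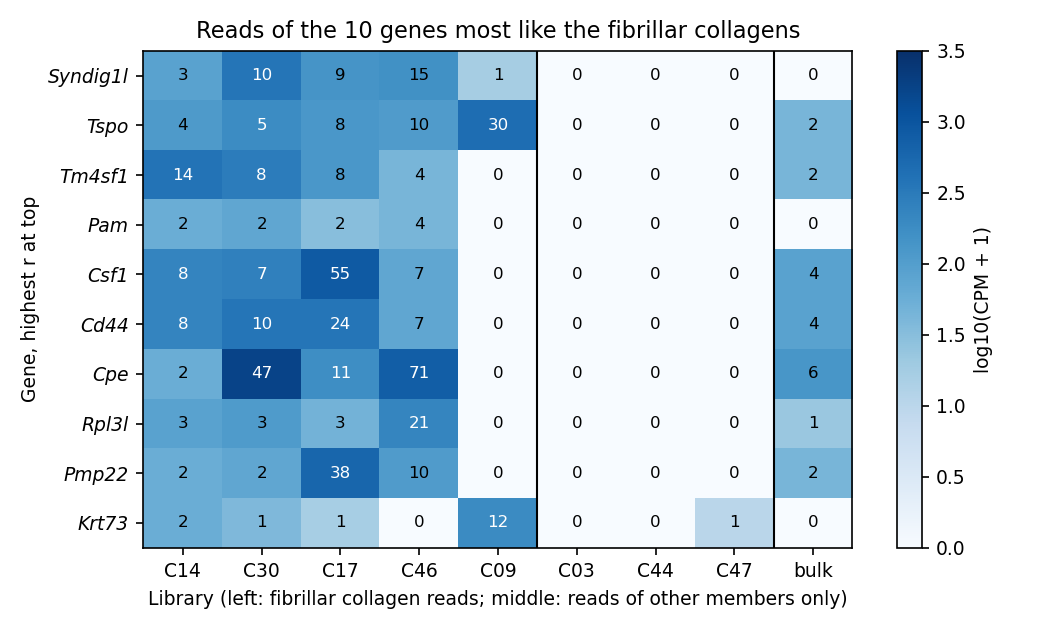
Reads (numbers) and log10(CPM + 1) (colour) of the 10 genes with the highest r, in the 5 cells with fibrillar collagens (left), the 3 cells with reads of other members only (middle) and bulk (right). Outside the first 5 cells only 1 read of Krt73, in C47, appears among the single cells shown.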

How the data were processed

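The deposited table holds whole-number read counts per RefSeq record for 34 single cells and 1 bulk library, with no normalization by the authors. TopHat2 and the rn5 build are named in the submitters' processing notes. Neither a read counter nor a strand setting is given in the sources used here. Of 17201 records, 16215 were matched by accession to a symbol in a RefSeq gene table (GRCr8, used for names), and the other 986, with 4.11% of reads, stayed in the totals. Counts were summed per symbol and scaled to CPM by library totals (Python 3.11.15, pandas 2.3.3, scipy 1.17.1). Transcript lengths were not used here, so levels are compared between libraries and not between genes. The ratio of bulk to cells takes the mean of 34 cells, each weighted equally, with exact Poisson intervals of the bulk reads, and 2-fold was the threshold. Its formula was checked on simulated counts. TMM factors (edgeR 4.0.16) and size factors (DESeq2 1.42.0) were alternatives, and no count test was run, since each group is 1 sample. No doublet caller was run. The members and lists were chosen with earlier results of these data known. The lists' named genes were the 3 highest by mean CPM and the 2 with the largest ratio of bulk to cells at 5 or more bulk reads. Others named are those in a count of 5 or fewer or singled out after their values were seen. A result that the rule would name is not reported here.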

Additional observations from a re-analysis of the deposited data

How the results depend on the processing

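Type I collagen stayed higher in bulk under every alternative that gave a value, but the size of the ratio depended on how cells were weighted and which were kept. With reads summed over cells, the ratio was 84.4 for Col1a1 and 40.2 for Col1a2. With cells of at least 50000 reads and 2000 genes it was 673 and 37.95, and with 1500 genes in place of 2000, a setting chosen after the data were seen, 54.7 and 44.02. The first filter takes out C14, C30 and C09, so its ratio for Col1a1 rests on 2 reads in C17. Both filters take out C14 and C30, the highest cells for both chains, which by itself raises the ratios. Leaving out 1 cell at a time gave 13.7 to 27.6 for Col1a1 and 6.10 to 11.4 for Col1a2. S100a4 turned from lower to higher in bulk with summed reads, at 1.88-fold. Spp1 did so without C30, at 1.79-fold. For genes of the other lists, leaving out the cell with most of their signal was added after the data were seen, and the other cells were not left out in turn. It brought Ccn1, Twist2, Sox17, Sparc and Tfap2c (11.3) past 2-fold in bulk and took Spp1 and Pdgfra out of the calls. Of the 10 genes most like the collagens, 4 to 10 remained when 1 cell was left out. Genes read in 4 cells drop out of the ranking when 1 of those cells is left out. The count of members at least 2-fold higher in bulk was 4 under each scaling and filter run. That count could hardly fall for Col5a1 and Fbn1, so it says little of them. Their 1 and 2 bulk reads gave 21.2 and 42.4 CPM, against cell means of 3.29 and 6.18 CPM. In 32 cells thinned to 20000 reads, or without C94 and C88, 4 cells held at least 2 members. Cells with a member numbered 7 at a threshold of 50 CPM, 7 of 32 when thinned, 4 of 25 under the first filter and 6 of 29 under the second, against 8 of 34. The single cell with Col3a1 (C14) or with Dcn (C30) was lost by either filter, and Col3a1 by thinning. The median over cells was 0 for every member and gave no ratio. No paired analysis was possible, since there is 1 bulk library and the labels give no unit that pairs it with cells. A bulk depth of 47121 reads limits any member under 63.7 CPM.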

Other observations

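Some genes outside the members, picked after their values were seen, had reads or high levels in cells with fibrillar collagens. Pcolce, an enhancer of procollagen processing, was read in C30 (147 CPM), C46 (126 CPM) and C17 (30.8 CPM) and in no other cell. Efemp1, which encodes a fibulin-family matrix protein, was read in C14 (112 CPM), C30 (73.3 CPM) and C17 (61.5 CPM) and in no other cell. Lgals1, which encodes galectin-1, had its 5 highest levels in the 5 collagen cells, from 1115 CPM in C09 to 2492 CPM in C30, and was also read in 8 other cells. Fn1 was read in all 5, at 6084 CPM in C30, 2747 in C14, 1476 in C17, 860 in C46 and 157 in C09, and in 20 other cells, among them C47 at 3332 CPM. Timp1 was highest in C30 (1173 CPM) and C14 (504 CPM), had 0 reads in C09 and was read in 16 other cells.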
